A study of Drosophila melanogaster with 2 samples.

Results

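MicroRNA genes were examined as places of binding of GFP-tagged Tiptop (Tio), a zinc finger transcription factor. They were taken as all transcripts of biotype pre_miRNA on the 6 main chromosome arms in the Ensembl BDGP6 annotation, each of which marks 1 precursor hairpin. This gave 260 hairpins among 17683 annotated genes, and hairpins on 1 strand at most 10 kb apart were joined into 203 loci, of which 181 held a single hairpin. Chromatin immunoprecipitation followed by sequencing (ChIP-seq) had been carried out with an anti-GFP antibody on whole Drosophila melanogaster embryos of both sexes, aged 4 to 24 h. The embryos came from a transgenic line that stably expresses Tio with GFP at its C terminus, and chromatin was sonicated to 200 to 800 bp. Both samples, biological replicates 1 and 2, belong to this 1 group, and a control library was not analysed here. What drives expression of the tagged protein is not given in the sources used here. Every tissue of the embryo was pooled, so a peak cannot be assigned to a cell type.

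A miRNA gene is transcribed as a long primary transcript. Drosha and its partner Pasha cut the hairpin out of it in the nucleus, Dicer-1 with Loquacious releases the duplex in the cytoplasm, and 1 strand is loaded into Argonaute-1. Bases 2 to 8 of that strand, the seed, pair with target messenger RNAs, whose translation is repressed and whose decay is hastened. Hairpins in introns can be made from the transcript of a host gene, whereas mirtrons are released by splicing without Drosha. The start of a primary transcript can lie far from its hairpin, so a distance to the hairpin is not a distance to the promoter.

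The mature miRNAs that the strongest or best characterised bound loci encode follow with the seed in capitals, 5′ to 3′. They were read from the Release 6 (dm6) genome sequence of RefSeq at the mature coordinates of the Ensembl annotation. Members of the mir-2 and mir-13 group share 1 seed, and each of the others has a different one.
mir-2a-1-3p: uAUCACAGccagcuuugaugagc
mir-2c-3p: uAUCACAGccagcuuugaugggc
mir-13a-3p: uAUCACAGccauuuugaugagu
mir-13b-1-3p: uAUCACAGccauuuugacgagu
mir-279-3p: uGACUAGAuccacacucauuaa
mir-282-5p: uAGCCUCUacuaggcuuugucugu
bantam-3p: uGAGAUCAuuuugaaagcugauu
mir-92a-3p: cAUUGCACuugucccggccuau
mir-375-3p: uUUGUUCGuuuggcuuaaguua
mir-275-3p: uCAGGUACcugaaguagcgcgcg
mir-305-5p: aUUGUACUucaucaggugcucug
mir-263b-5p: cUUGGCACugggagaauucac
mir-277-3p: uAAAUGCAcuaucugguacgaca
mir-219-5p: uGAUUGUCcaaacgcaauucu

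The DNA under the summits, the positions of highest signal within peaks, is shown for both strongest loci, for the TATCGATA and TAATTA matches at bantam, for the summit lowest in G+C (mir-2c cluster) and for 2 summits of other strong loci that hold a searched word. Each run spans 50 bp on either side of the summit on the plus strand of dm6, and capitals mark a match, on either strand, to a searched word: TAATTA as the core of homeodomain sites, TATCGATA as a DREF site, the repeat GAGAGAG, the E-boxes CATATG and then also CAGCTG, or the word CAGTGC. The windows are chr3R:29214407-29214507 (mir-279), chr3L:3250144-3250244 (mir-282), chr3L:640941-641041 and chr3L:642577-642677 (bantam), chr3R:15418965-15419065 (mir-2c cluster), chrX:2009640-2009740 (mir-2496) and chr2L:10752060-10752160 (mir-9378).
mir-279: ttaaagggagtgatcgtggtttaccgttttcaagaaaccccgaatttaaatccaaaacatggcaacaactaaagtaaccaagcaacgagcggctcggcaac
mir-282: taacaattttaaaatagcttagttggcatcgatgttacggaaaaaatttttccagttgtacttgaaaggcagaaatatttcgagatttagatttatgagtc
bantam upstream: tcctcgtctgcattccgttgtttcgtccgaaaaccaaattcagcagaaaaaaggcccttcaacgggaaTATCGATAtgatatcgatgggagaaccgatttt
bantam downstream: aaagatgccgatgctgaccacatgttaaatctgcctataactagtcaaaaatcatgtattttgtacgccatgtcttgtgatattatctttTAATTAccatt
mir-2c cluster: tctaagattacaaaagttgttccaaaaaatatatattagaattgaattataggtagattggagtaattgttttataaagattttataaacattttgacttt
mir-2496: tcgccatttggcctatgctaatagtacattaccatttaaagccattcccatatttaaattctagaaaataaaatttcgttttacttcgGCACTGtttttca
mir-9378: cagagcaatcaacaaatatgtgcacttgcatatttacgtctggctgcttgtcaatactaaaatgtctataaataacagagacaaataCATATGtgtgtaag

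The authors deposited 4 lists on dm6 that bear on these genes. One list, cut by the irreproducible discovery rate (IDR), which scores how well the ranks of a peak match in both replicates, held 3793 peaks, and the pooled list and each replicate list held 30000 regions, background regions included. Each region carries the authors' signal value, whose scaling no source states, and pooled and replicate values have different scales. Sequencing depth is unknown, so precision is given only as the difference between both replicates. There is 1 group and hence no contrast to test.

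Few miRNA genes had an IDR peak of Tio nearby. An IDR summit lay at most 2 kb from 29 of 260 hairpins (11.2%), in 24 of 203 loci (11.8%). The same distance took in 20.6% of all other genes, 21.5% of protein-coding genes, 21.2% of small nucleolar RNA genes and 14.1% of transfer RNA genes. The hairpins had a median length of 92 bp and a range of 50 to 174 bp, and the lengths of the classes were not matched. For single positions, 14.4% of protein-coding 5′ ends and 9.23% of all bases of the arms lay at most 2 kb from an IDR summit. The hairpins' share lay between these last 2 values and so near the background of the genome. Across all hairpins the median distance to the nearest IDR summit was 13152 bp, and the farthest hairpin, mir-4942, lay 460333 bp away.

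**Figure D1:**
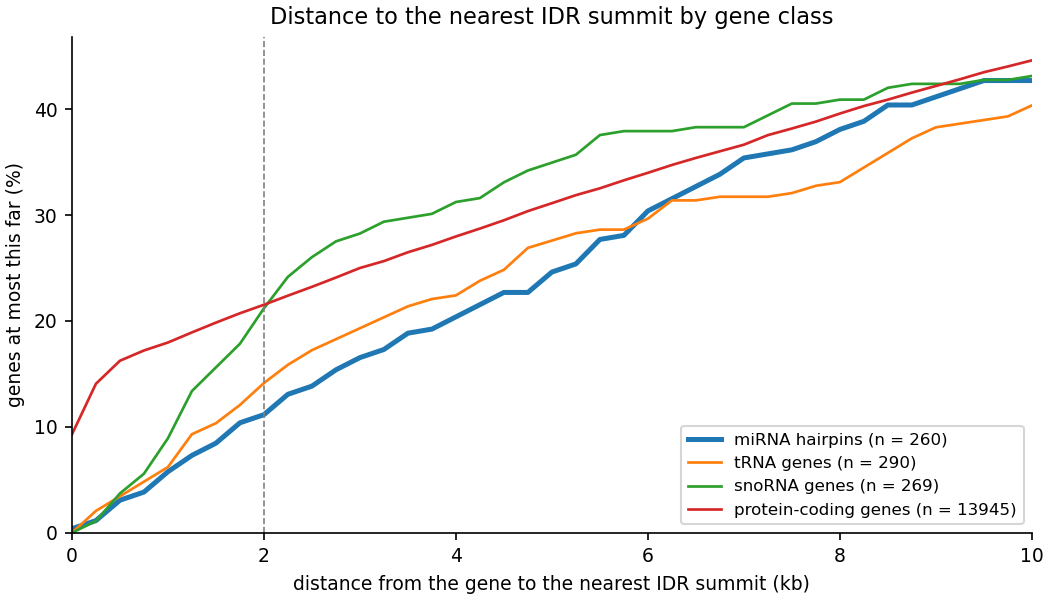
Share of genes (%) with an IDR summit at most the distance on the x axis (kb) for miRNA hairpins, transfer RNA, small nucleolar RNA and protein-coding genes; the dashed line marks 2 kb. At 2 kb the hairpins stand at 11.2%, below the other 3 classes.

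In all, 32 IDR summits (0.844% of 3793) lay within this distance of a hairpin. Their median pooled signal was 138, with quartiles of 107 and 265, against 145 with quartiles of 108 and 228 over all IDR peaks, and 15 of the 32 lay above the overall median. The range ran from 87.7 at the mir-2a hairpins to 853 at mir-279. Peaks overlap at bantam, mir-9377, mir-2496 and mir-969, so not every summit stands for a separate region.

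The strongest summit belonged to the mir-279/mir-996 locus, whose miRNAs share the seed of mir-279 and restrict the formation of carbon dioxide sensing neurons. Its signal was 446 in replicate 1, 409.9 in replicate 2 and 853 in the pooled list, rank 41 of the IDR list. The summit lay 1128 bp upstream of mir-279 and 105 bp from the start of lncRNA:CR31044, annotated as the primary transcript of both hairpins. The mir-996 hairpin, farther along the same transcript, was 2727 bp from it and so outside the limit. In both replicates this was the strongest summit near any hairpin.

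The second was at mir-282, whose hairpin lies in an exon of the non-coding gene lncRNA:CR43626. Here replicate 2 was the higher, with 386 against 371 in replicate 1 and 759 in the pooled list. The summit was 828 bp upstream of the hairpin and 400 bp from an annotated start of the host. These 2 loci stood apart from the others, whose highest pooled signal was 384.

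Bantam, listed as mir-ban, represses the proapoptotic gene hid and promotes growth. In the eye disc it is known to act downstream of Homothorax, Yorkie and Teashirt, the paralog of Tio. It had 4 IDR summits, the most of any miRNA locus, and the peaks of each pair given below overlap. A pair lay upstream of the hairpin, the stronger at 1417 bp with a signal of 149.8 in replicate 1, 125 in replicate 2 and 271 in the pooled list, and the weaker at 1217 bp with 75.3, 29.8 and 103. The other pair lay downstream, at 339 bp with 101.4, 72.9 and 167 and at 545 bp with 49.9, 43.7 and 110.5. All 4 were in exons of the host lncRNA:CR43334, none within 1 kb of an annotated start. Replicate 1 was higher at each of them, and the weaker upstream summit, which holds the TATCGATA match shown above, differed most, by 1.34 on the log2 scale.

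**Figure D2:**
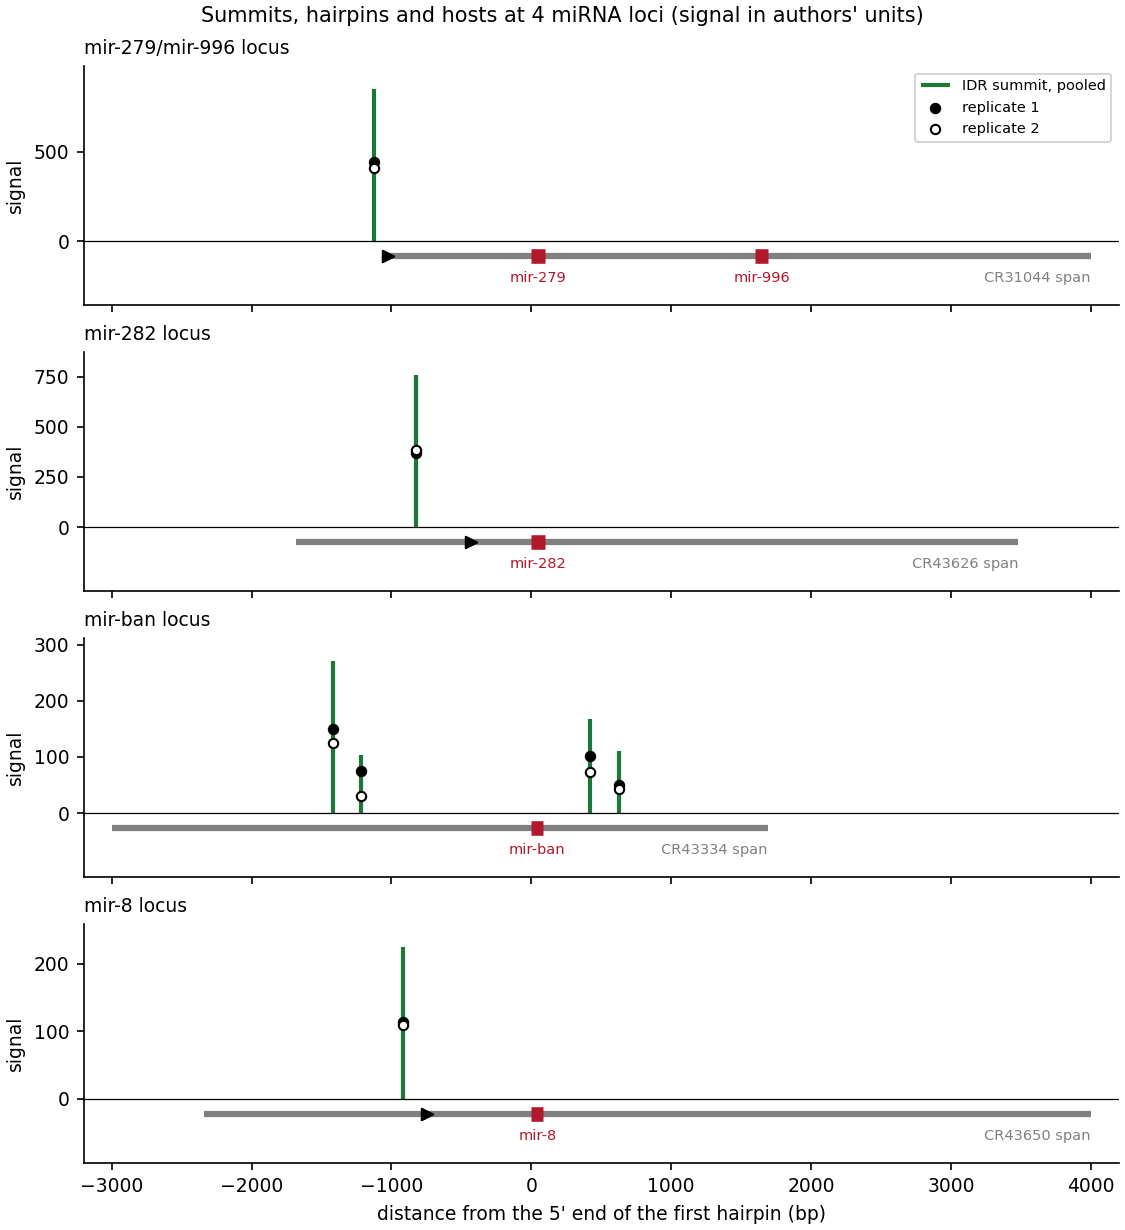
Signal (authors' units) at 4 loci against distance in bp from the 5′ end of the first hairpin: green lines are pooled values, black and white points replicates 1 and 2. Only IDR summits at most 2 kb from a hairpin are drawn. Red boxes are hairpins, grey bars the span of the host (cut where it runs past the plot) and arrowheads the annotated host start nearest to a summit within 1 kb. At mir-279, mir-282 and mir-8 the single summit drawn lies upstream of the hairpin and of that start, and at bantam summits lie on both sides of the hairpin. The hosts of mir-282 and mir-8 each had 2 IDR summits within 1 kb of a start. The weaker one, more than 2 kb from the hairpin, is not drawn.

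The mir-2c/mir-13a/mir-13b-1 cluster belongs to the family that targets proapoptotic genes through the K-box, the complement of its seed. Its 3 hairpins shared a summit 1170 bp upstream of mir-2c, with 167 in replicate 1, 97.3 in replicate 2 and 263 in the pooled list. The mir-2a-1 and mir-2a-2 hairpins, in an intron of spi, which encodes the main ligand of the EGF receptor, shared the weakest of the 32 summits, with 62.3, 31.0 and 87.7. Near mir-308, in an intron of RpS23, which encodes a ribosomal protein, the values were 81.5, 54.3 and 136, and the summit lay 20 bp from the start of RpS23. In this family the seed AUCACAG occurred in 14 hairpins, of which 6 had an IDR summit and 11 a pooled region nearby, against 11.2% and 51.9% of all hairpins. The 6 hairpins stand for only 3 summits, and replicate 1 was the higher at each of them.

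Among the other strong loci, mir-9377, in an intron of Tis11, which encodes an RNA-binding protein that promotes messenger RNA decay, had 3 summits, all downstream of the hairpin. The strongest gave 202 in replicate 1, 183 in replicate 2 and 384 in the pooled list. The nearest, at 325 bp, gave 189, 179 and 374, and the third was weak, with 42.5, 22.9 and 116. All were more than 5 kb from an annotated start, so they are intronic regions of the host.

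The mir-92a hairpin lies in an intron of jigr1, and mir-92 miRNAs are known to maintain neuroblasts. Its summit gave 185 in replicate 1, 121 in replicate 2 and 308 in the pooled list, 409 bp downstream of the hairpin and 237 bp from a start of jigr1. That start lies downstream of mir-92a and upstream of mir-92b, whose own hairpin was 4389 bp from the summit. At mir-281-1 and mir-281-2, in an intron of Oda, which encodes ornithine decarboxylase antizyme, the values were 162, 87.6 and 255. Replicates differed more here than at the strongest loci: replicate 1 was higher by 0.62 on the log2 scale at mir-92a and by 0.89 at mir-281-1.

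The mir-8 miRNA, which acts in insulin signalling in the fat body and in neural maintenance, had a summit 915 bp upstream of its hairpin and 172 bp from a start of its primary transcript lncRNA:CR43650. Both replicates were close, with 113 in replicate 1 and 110.0 in replicate 2, and the pooled value was 225. At mir-375, in an exon of lncRNA:CR45345, the summit was 741 bp upstream, with 100.8, 66.3 and 172. The mir-275 and mir-305 hairpins, known from blood feeding in mosquitoes and from gut stem cells in flies, shared a summit that lay 194 bp from the start of the protein-coding gene muc, with 68.3, 57.9 and 131. At that summit the nearest start is thus that of a neighbour, not of the miRNA host. The host of mir-275, lncRNA:CR43857, had another IDR summit, 857 bp from its start and 2832 bp from the hairpin. It gave 83.7 in replicate 1 and 111 in the pooled list, and no replicate 2 summit was matched.

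The remaining loci among the 15 strongest encode miRNAs of little known function. At mir-4981 the signal was 209 in replicate 1, 150.4 in replicate 2 and 363 in the pooled list, at mir-2496 168, 143 and 314, and at mir-4968 139.8, 107 and 242. At mir-9378, in an intron of CG17124, replicate 2 was the higher, with 132 against 108 in replicate 1 and 246 in the pooled list. A second summit of mir-2496 showed the largest difference between replicates, 140.1 against 44.0. The other 9 loci had strongest pooled signals of 87.7 to 120.4, among them mir-263b, which protects sensory bristle cells from apoptosis, with 49.5, 40.6 and 100.4. At mir-277, which acts in the breakdown of branched-chain amino acids, the values were 50.02, 37.8 and 90.4, and at mir-219 they were 46.8, 41.4 and 90.1.

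**Figure D3:**
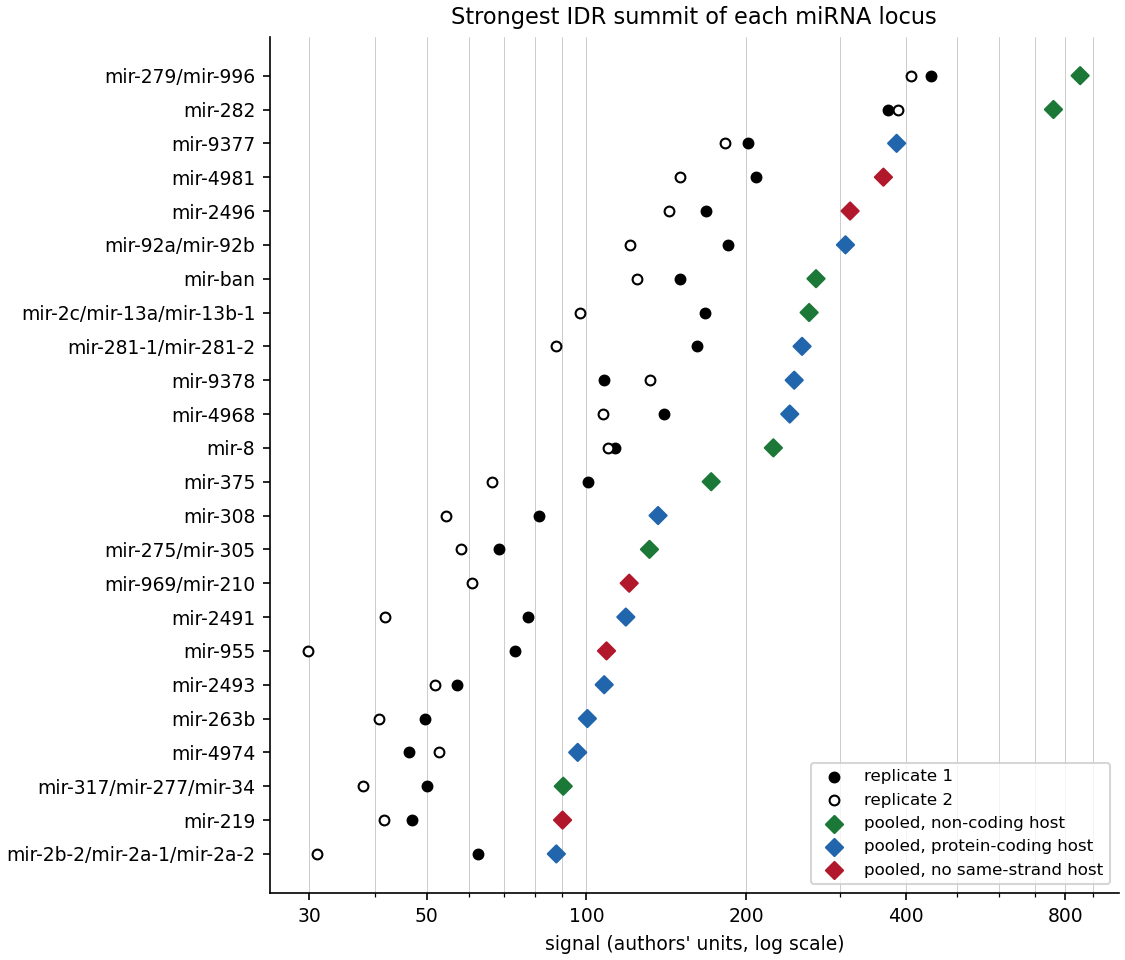
Signal (authors' units, log scale) of the strongest IDR summit of each of the 24 loci: diamonds are pooled values coloured by the host of the hairpin, black and white points replicates 1 and 2. The mir-279/mir-996 and mir-282 loci stand above all others in all 3 lists, and at mir-969/mir-210 no replicate 1 summit was matched.

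Replicate values could be matched within 100 bp for 31 of the 32 summits. Replicate 1 was higher at 28 of them, with a median log2 ratio of 0.40 (SD 0.48 across summits, range -0.29 to 1.67), and 5 differed by more than 2-fold. Over 3504 matched IDR peaks the median was 0.16 (SD 0.46 across peaks) and 67.6% were higher in replicate 1. The difference between these medians was not tested. Whether both replicate lists are on 1 scale is unknown. Across the 31 summits Spearman's rho between replicates was 0.85, and it was 0.79 over all matched IDR peaks, as a description of peaks chosen for concordance.

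Of the 32 summits, 18 lay upstream of the nearest hairpin in its direction of transcription, 13 downstream and 1 inside it. The summit inside was that of mir-4974, in an intron of CG8671, with 46.3 in replicate 1, 52.7 in replicate 2 and 96.3 in the pooled list. The median distance was 884 bp and the largest 1832 bp. Summits were thus spread over both sides, and the 2 strongest were upstream.

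**Figure D4:**
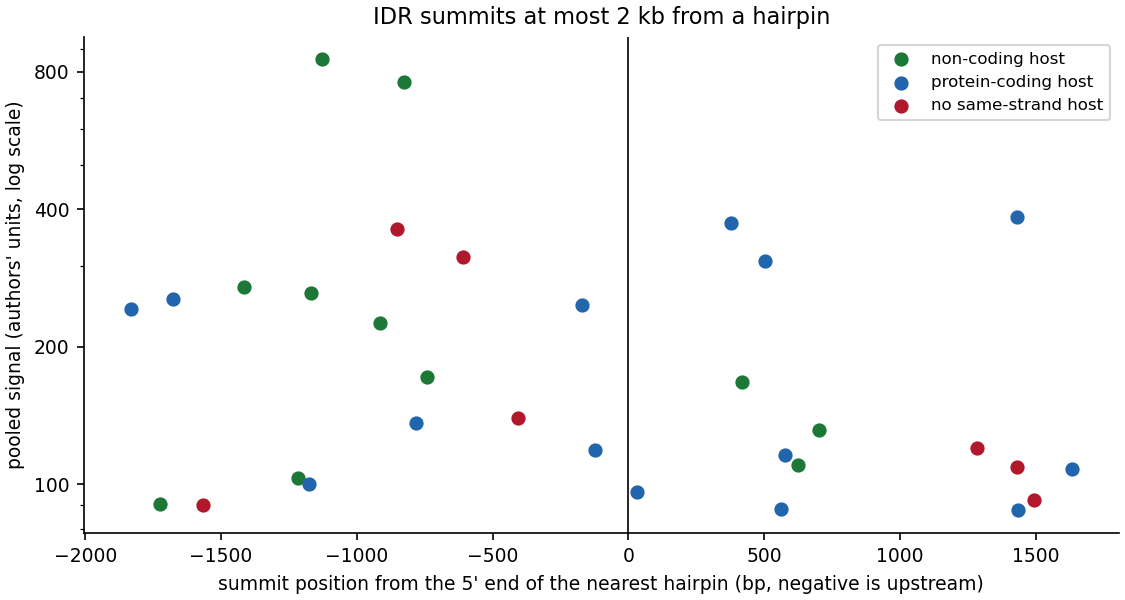
Position of the 32 IDR summits in bp from the 5′ end of the nearest hairpin (negative is upstream in the direction of transcription) against pooled signal (authors' units, log scale), coloured by the host of the locus. Summits lie on both sides of the hairpin, 18 of them upstream, and the 2 highest are upstream at loci with a non-coding host.

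Summits at annotated starts were counted beside all IDR summits. Within 1 kb of a protein-coding transcription start lay 10 of 32 (31.3%), against 43.8% of all IDR summits. With starts of non-coding genes included it was 14 of 32 (43.8%), against 48.2%. The counts are small, the 32 summits come from 24 loci, and these differences were not tested. By position, 14 were in promoters, 10 in introns, 6 in exons of non-coding transcripts, 1 in a 3′ UTR and 1 between genes. Exons of that kind held 0.633% of all IDR summits. The 32 summits were chosen near hairpins, and 43 of the 46 hairpins in a non-coding host lie in its exons. The choice itself thus favours such exons. The 6 came from only 3 loci, bantam with 4 and the mir-2c and mir-277 clusters with 1 each.

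Hairpins were also counted by host. Of 46 hairpins in a non-coding host, 10 (21.7%) had an IDR summit at most 2 kb away, against 13 of 136 (9.56%) in a protein-coding host on the same strand and 6 of 78 (7.69%) with neither. These shares were not tested, and clustered hairpins share summits. The order depended on the distance. Within 2 kb, 13 of 136 hairpins in protein-coding hosts and 16 of 124 outside them had an IDR summit. Within 5 kb it was 38 of 136 and 26 of 124. By arm the counts were 7 of 56 hairpins on 2L, 5 of 55 on 2R, 6 of 31 on 3L, 7 of 58 on 3R, 4 of 58 on X and 0 of 2 on arm 4.

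Since an intronic miRNA can use the promoter of its host, the starts of hosts were examined as well. An IDR summit lay within 1 kb of an annotated start in 36 of 128 protein-coding hosts (28.1%), against 12.6% of all protein-coding genes, and in 7 of 37 non-coding hosts (18.9%), against 10.7% of all non-coding genes. Starts on either side of the hairpin were counted. In 41 hosts the start nearest to the strongest such summit lay upstream of a hairpin. In tacc and for, which host mir-9384 and mir-4972, it lay downstream. The hosts chk and CG45092 share 1 summit, as do Oda and asRNA:CR46194, whose summit is counted in both host classes. Protein-coding hosts had a mean of 2.21 annotated starts and a median span of 14.1 kb, against 1.41 starts and 2.17 kb over all protein-coding genes. Non-coding hosts likewise had 1.65 starts against 1.06. The part of this in the higher shares was not tested.

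The strongest host starts with a protein-coding host were those of spi, with 350.1 in replicate 1, 263 in replicate 2 and 617 in the pooled list, MRP, with 300.2, 277 and 577, and Btk, with 289, 255 and 548. They host mir-2a-1, mir-2a-2 and mir-2b-2, then mir-9382 and mir-2b-1, and the summits lay 5514, 2883 and 19154 bp from the first hairpin. At SREBP, which encodes the sterol-responsive regulator that hosts mir-33, the values were 139.0, 129 and 267. E2f1, a cell cycle regulator that hosts mir-11 and mir-998, had a weaker summit, with 41.0, 73.3 and 109.7. Together, 51 hairpins lay in a host with a summit at a start and 67 had either such a summit or one at most 2 kb from the hairpin. No background share was computed for either count, so neither can be read as high or low. The 51 include mir-9384, mir-4972 and mir-92a, for which the host start at the strongest such summit lies downstream. Of 21 non-coding hosts annotated as primary transcripts, 2 had an IDR summit at a start, those of mir-279/mir-996 and mir-8. Among all non-coding genes the share was 10.7%.

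By known role, IDR summits were near 7 of 15 hairpins of miRNAs that act in apoptosis and growth, 4 of 13 in the nervous system and sensory organs and 4 of 7 in metabolism. The 7 were bantam, mir-2a-1, mir-2a-2, mir-2c, mir-13a, mir-13b-1 and mir-308, at 4 loci. The 4 of the neural list were mir-279, mir-263b, mir-8 and mir-219. Those of the metabolic list were mir-8, mir-275, mir-305 and mir-277, at 3 loci. None was near the 4 hairpins of the timing list, which holds let-7, mir-100, mir-125 and mir-34, the 3 of the muscle list with mir-1, the 4 of the Hox clusters, the 8 of the early zygotic mir-309 cluster or the 13 mirtrons. The share of all hairpins was 11.2%, and the lists are small and overlap. They were also drawn up with earlier results of these data known, so their shares cannot test a link to a role.

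**Figure D5:**
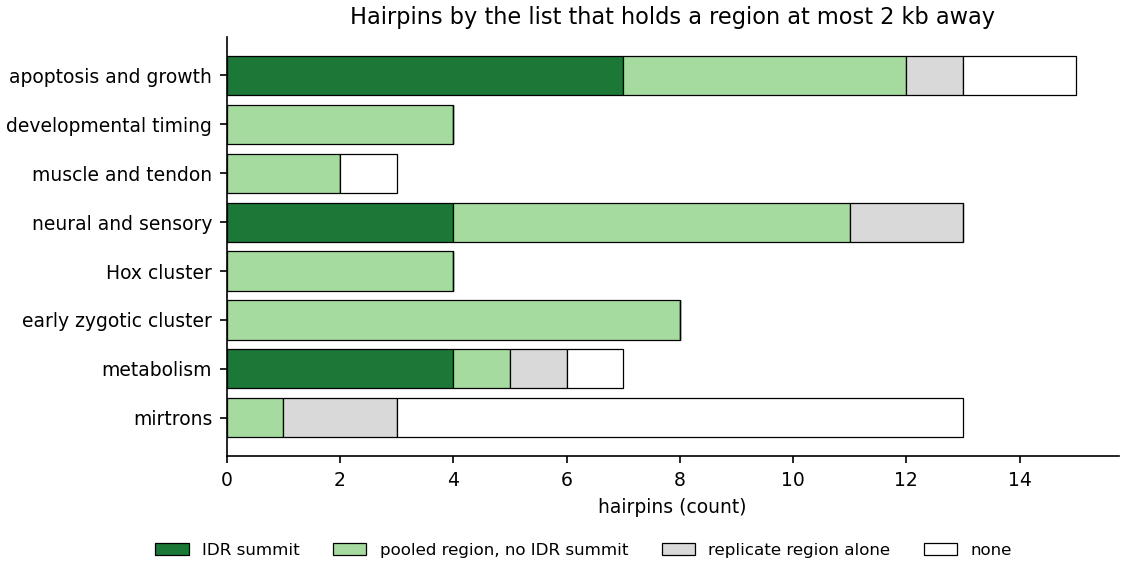
Number of hairpins in each role list by the strongest kind of list with a region at most 2 kb away: IDR, pooled without IDR, a replicate list without the pooled list, or none. IDR summits occur in the apoptosis, neural and metabolism lists, and 10 of 13 mirtrons have no region in any list.

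Weaker regions were common. A region of the pooled list lay at most 2 kb from 135 hairpins (51.9%), against 55.4% of all other genes, 60.3% of transfer RNA genes, 35.3% of small nucleolar RNA genes and 50.4% of the bases of the arms. The hairpins' share was near that of bases, so such a region by itself says little about a hairpin. Replicate 1 had a region near 134 hairpins and replicate 2 near 140, 98 hairpins had one in all 3 of these lists, and 88 had none in any. By rank of the best pooled region, 29 hairpins were within the first 3793, 39 from there to 10000 and 67 beyond.

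The strongest region below the IDR list was at mir-276a, a regulator of memory, 6 bp from the hairpin, with 58.9 in replicate 1 and 87.1 in the pooled list, rank 3822. At the same site, 4 bp from the hairpin, replicate 2 had 25.5, less than the 36.9 of its highest region within 2 kb, which lay 810 bp away. At iab-4 and iab-8, which are transcribed from opposite strands of the same hairpin in the bithorax complex and repress Hox genes, the pooled value was 80.5 at 1188 bp, with 56.8 at 1189 bp in replicate 2 and 39.5 at 902 bp as the highest in replicate 1. The mir-310 to mir-313 cluster had 82.0 in the pooled list, with 39.97 and 45.1.

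Near let-7, which times metamorphosis, the highest pooled value within 2 kb was 46.3, at 1421 bp, with 29.6 in replicate 2 at 1407 bp. The only replicate 1 region within 2 kb, with 22.9, was another one, 505 bp from the hairpin on its other side. At mir-1, the main muscle miRNA, it was 48.2 at 36 bp, with 27.4 in replicate 1 inside the hairpin and 20.7 in replicate 2 at 63 bp. At the mir-309 cluster, which clears maternal messenger RNAs, it was 32.3 at rank 25777, with 21.4 in replicate 2 and no region of replicate 1. These values lie in the part of the lists that includes background.

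At the edge of the 2 kb limit, the 5 hairpins just inside were mir-219, mir-281-1, mir-277, mir-2a-1 and mir-281-2, at 1566 to 1896 bp. The 5 just outside were mir-1013, mir-2b-2, mir-1009, mir-1004 and mir-2495, at 2055 to 2243 bp, with pooled signals of 87.7 to 156. Hairpins of the spi intron fell on both sides of the limit.

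Base composition at the summits was like that of all peaks. Within 100 bp on either side of the summit, G+C content was 35.2% ± 7.23 (SD, n = 32), against 33.8% ± 5.99 (SD, n = 3793) for all IDR summits, while the hairpins themselves had 42.8% ± 9.29 (SD, n = 260). It ran from 19.9% at the mir-2c cluster to 50.7% downstream of bantam. At least 1 of the 6 searched words lay within 100 bp of 17 of the 32 summits, on either strand and with overlaps allowed, against 46.5% of all IDR summits. TAATTA was at 9 (28.1%, against 19.1%), CATATG at 5 (15.6%, against 8.91%), CAGTGC at 4 (12.5%, against 16.4%) and TATCGATA at 1 (3.13%, against 1.48%). GAGAGAG and CAGCTG were at 0, against 3.16% and 6.88%. With 32 summits each count is small, and a match of letters is not a binding site.

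The genes that make and use miRNAs were listed as the other part of the pathway. An IDR summit lay at most 2 kb from 7 of 18, against 21.5% of protein-coding genes. A pooled region lay near 8 of 18, against 55.4% of all genes other than miRNA genes. The strongest was beside pasha, with 415 in replicate 1, 418 in replicate 2 and 828 in the pooled list. It lay 6 bp from the start of the neighbour Mnat9 and 1811 bp from that of pasha. The summit near loqs, which encodes Loquacious, gave 254, 266 and 521 and lay 115 bp from the start of CG7099. For these 2 genes the nearest start is that of another gene.

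Around r2d2, which encodes the partner of Dicer-2, the values were 184, 121 and 313, 167 bp from its own start and 78 bp from that of Herp. At Nbr, an exonuclease that trims miRNAs, they were 131, 109 and 235, with the start of Coq3 at 68 bp. At Pop2, a deadenylase subunit, they were 97.4, 28.3 and 165, with the start of CG6928 at 54 bp. The summit at gw, which encodes the silencing effector GW182, was 113 bp from its own start, with 91.9, 132 and 218. At twin, another deadenylase subunit, it was intronic and weak, with 50.2, 42.5 and 95.4. Of the 7, gw was thus the only one whose summit was nearer to its own start than to a neighbour's and within 1 kb. No IDR summit lay at most 2 kb from drosha, Dcr-1, AGO1, Ranbp21, AGO2, Dcr-2, Hen1, Tailor, me31B, Not1 or pcm, with distances from 7350 bp at Tailor to 106000 bp at pcm, and AGO1 had a pooled region of 51.8.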

How the data were processed

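The authors deposited peak lists for tio-GFP embryos. The deposited notes derive each replicate list from the alignments of 1 replicate and a control, the pooled list from both replicates and the control, and the IDR list from these. Aligner, peak caller and IDR cutoff: not given in the sources used here. The signal column is the authors' own value, deposited with no stated scaling, and was used to describe and rank regions within a list. The deposited summit offset was added to the region start. All values are on dm6, 1-based.

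Distances ran from the summit to the nearer end of the hairpin (Ensembl BDGP6 annotation; FlyBase release 6.54 in RefSeq). A summit counted at most 2 kb away, replicate summits were matched within 100 bp, and promoters reached 1 kb from a start. In this annotation pre_miRNA is a transcript biotype, and mature arms listed as genes were left out. Python 3.11.15, pandas 2.3.3, numpy 2.4.6 and scipy 1.17.1 were used, and the distance code was tested on simulated summits. The text names the 15 loci of highest IDR signal, members of 8 role lists, 18 processing genes and 5 hairpins on either side of the limit. The host starts, the gene classes and genome bases set beside the hairpins, MRP, Btk, the mir-310 cluster, mir-4974 and mir-4942 were picked after their values were seen. Of the listed names, 4 were updated to current symbols. The members and lists were chosen with earlier results of these data known. No test was made, since there was 1 group. Alternatives covered distance, peak set, each replicate alone, locus joining, windows and matching.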

Additional observations from a re-analysis of the deposited data

How the results depend on the processing

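Of 49 alternative counts and shares, 28 stayed within 1.5 times the reported count or the 95% Wilson interval of the share, and 21 moved further. For medians and means only the SD of single summits was at hand, too wide a bar for them, so their values are given: the median signal was 167 within 1 kb, 147 within 5 kb and 198 with 1 value for each locus, the median log2 ratio 0.39 with matching within 50 or 200 bp, and G+C content 32.8% in the 1896 strongest IDR peaks and 34.8% in the narrower window. With at most 1 kb, 15 hairpins, 14 loci and 17 summits remained, 7 hairpins in and 8 outside protein-coding hosts, 4 processing genes and 36.9% of hairpins with a pooled region. With at most 5 kb there were 64 hairpins, 53 loci and 79 summits, 38 hairpins in and 26 outside protein-coding hosts. In the 1896 strongest IDR peaks, 16 hairpins, 13 loci and 15 summits were left, 6 hairpins in and 10 outside protein-coding hosts, 7 summits with a searched word and 73.3% of summits upstream. Fewer peaks or a shorter distance lower these counts by construction. Pooled regions matched in both replicate lists lay near 26.5% of hairpins. A 500 bp window put 15.6% of summits at a protein-coding start. With each replicate alone (its 3793 highest regions), hairpins ranged from 25 to 30, loci from 21 to 25, summits from 25 to 35, the share near protein-coding starts from 28.6% to 32.0% and upstream from 62.9% to 64.0%. Hairpins in protein-coding hosts ranged from 10 to 14 and outside from 15 to 16, processing genes from 6 to 7, summits with a word from 13 to 17 and G+C content from 34.7% to 36.8%. Of the 29 hairpins, 27 were found with replicate 1 alone, without mir-4974 and mir-219, and 22 with replicate 2 alone. With the whole list of 1 replicate in place of the pooled list, the share of hairpins with a region was 51.5% for replicate 1 and 53.8% for replicate 2. No paired analysis was possible because there is 1 group. The unknown depth limits every weak region, and the absence of a region is not absence of binding.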
